A study of Homo sapiens with 2 samples.

Results

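The 10 ETS transcription factor genes described here were chosen by name from 21382 genes of a TPM table. ERG, ETV1, ETV4, ETV5 and FLI1 are ETS genes that are rearranged in prostate cancer. SPDEF, EHF, ELF3, ETS1 and ETS2 are ETS genes with known roles in epithelium. All 10 were in the table, and none was listed at 0 in either cell line.

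The lines RC77 T/E and MDA PCa 2b, both human prostate cancer cells left untreated, gave 1 library of total RNA each, so that no value below has a replicate error and no difference has a test. MDA PCa 2b is a line from a bone metastasis and grew in Ham's F-12 (Kaighn's) medium with serum, cholera toxin, EGF, hydrocortisone, insulin, selenite and phosphoethanolamine. RC77 T/E is an immortalised line from a prostate tumour and grew in a serum-free keratinocyte medium with EGF and bovine pituitary extract. A difference between the lines and a difference between their media cannot be told apart, and each line stands for 1 tumour.

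ETS proteins share a winged-helix DNA-binding domain that reads a GGAA core, and their flanking sequence preferences and partners differ. In many prostate tumours a rearrangement puts ERG, ETV1, ETV4, ETV5 or FLI1 under the control of another gene, most often the androgen-driven TMPRSS2, so that an ETS protein that prostate epithelium makes little of becomes abundant. SPDEF, EHF and ELF3 are made by normal epithelia, SPDEF by luminal and goblet cells, whereas ETS1 and ETS2 carry a docking and phosphorylation site for MAP kinases and are widely used outside luminal epithelium.

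TPM is an expression level per transcript length and library total, so levels of different genes can be compared within a line. Many deposited values of 1 TPM or more had lost their decimal mark. It was restored from the deposited mean and standard error, which left 1 possible value for 5 of the 10 genes and a pair of values 10 times apart for ETV4, ETV5, EHF, ELF3 and ETS2. Both are given for those genes, and their linear ratio between the lines is the same at either. The difference between the lines was expressed as the log2 ratio with RC77 T/E in the numerator, after adding 1 TPM to each value, so that negative values mean a higher level in MDA PCa 2b, and it understates differences of genes below 1 TPM. Its median over the 11624 genes whose mean reached 1 TPM was -0.15.

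Upstream sequence is shown for SPDEF, ETV1, ELF3 and EHF, the genes of the 10 that were higher by 2-fold or more in MDA PCa 2b, so that the promoters of genes with a shared direction can be set side by side. RefSeq promoter windows on GRCh38.p14 existed for 6 of the 10 genes, 16 windows in all. The 250 bases before a transcription start are printed below, 5′ to 3′ on the gene's strand, with matches of 7 motifs in capitals on either strand. Those searched were the ETS site CCGGAA and the octamers TGAATGAA and TGAATGGA, which the repressor capicua binds. The AP-1 site TGANTCA and the forkhead site TGTTTAC were also searched. The last were the E-box CACGTG and the TATA box, whose letters are TATAAA.
ETV1, chr7:13991426-13991675, - strand: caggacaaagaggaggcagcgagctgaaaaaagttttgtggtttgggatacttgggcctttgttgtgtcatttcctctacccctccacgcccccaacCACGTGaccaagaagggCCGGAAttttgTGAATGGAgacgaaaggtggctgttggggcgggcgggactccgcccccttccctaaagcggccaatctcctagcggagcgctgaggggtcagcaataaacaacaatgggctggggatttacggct
SPDEF, chr6:34556330-34556579, - strand: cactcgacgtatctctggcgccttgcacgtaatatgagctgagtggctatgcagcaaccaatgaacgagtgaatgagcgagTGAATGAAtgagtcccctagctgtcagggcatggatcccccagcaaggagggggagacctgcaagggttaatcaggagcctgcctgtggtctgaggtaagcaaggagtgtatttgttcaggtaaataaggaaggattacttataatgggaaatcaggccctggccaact
ELF3, chr1:202010337-202010586, + strand: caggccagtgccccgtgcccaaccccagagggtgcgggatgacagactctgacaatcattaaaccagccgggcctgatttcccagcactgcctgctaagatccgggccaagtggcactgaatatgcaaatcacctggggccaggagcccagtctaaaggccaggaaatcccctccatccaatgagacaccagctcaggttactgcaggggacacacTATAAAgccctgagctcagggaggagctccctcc
EHF, chr11:34632316-34632565, + strand: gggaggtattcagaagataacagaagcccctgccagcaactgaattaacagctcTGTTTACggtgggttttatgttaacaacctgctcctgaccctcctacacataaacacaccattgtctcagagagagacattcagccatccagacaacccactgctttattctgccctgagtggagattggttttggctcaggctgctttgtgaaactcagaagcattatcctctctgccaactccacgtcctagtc

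The ETV1 stretch held TGAATGGA 125 bases before the start, CCGGAA 136 bases before it and CACGTG 153 bases before it. It is from the first of 6 ETV1 windows, and the others held neither capicua octamer nor CACGTG. The SPDEF stretch held TGAATGAA 169 bases before its start. Either capicua octamer was in 2.63% of all 35116 promoter windows of 300 bases, CCGGAA in 17.2% and CACGTG in 7.26%. CCGGAA was also in a further pair of ETV1 windows that overlap each other, and in no window of the other 5 genes. The ELF3 stretch held TATAAA 34 bases before the start, as 11.5% of all windows do at some position. The EHF stretch, the second of its windows, held TGTTTAC 196 bases before the start, a motif of 3.42% of windows and 4.19% of genes. The first EHF window, not printed, held none of the 7 motifs. TGANTCA, present in 7.71% of all windows, was in none of the 16, and the windows of ERG and ETS2 held none of the 7 motifs. A match of letters describes the window and shows no binding.

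Of the 10 genes, 7 reached 1 TPM in MDA PCa 2b, as 49.6% of all genes did, and 8 reached it in RC77 T/E, as 52.8% did. In both lines 6 reached that level, and ERG alone reached it in neither. The other 9 had a mean of 1 TPM or more and could be set beside the 11624 genes. Of these 9, SPDEF, ETV1, ELF3 and EHF, 4 genes, were higher by 2-fold or more in MDA PCa 2b, against 20.0% of all genes tested. ETS1 and FLI1, 2 genes, were higher by 2-fold or more in RC77 T/E, against 19.4%. The median log2 ratio of the 10 genes was -0.33.

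**Figure D1:**
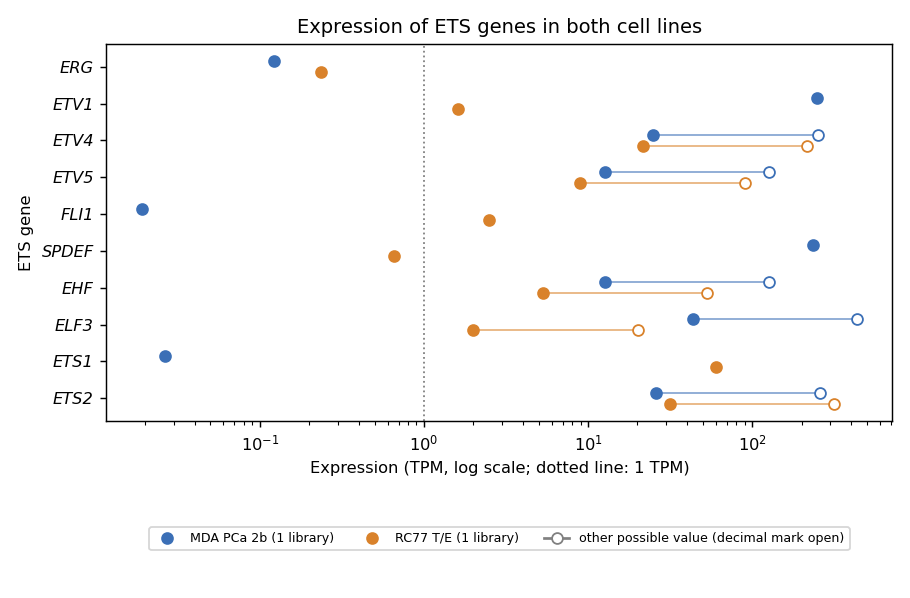
Expression of the 10 ETS genes in TPM (x axis, log scale) in the 1 library of MDA PCa 2b (blue) and of RC77 T/E (orange), with open circles at the other possible value where the decimal mark could not be settled and a dotted line at 1 TPM. ETV1 (247 TPM) and SPDEF (236 TPM) were high in MDA PCa 2b but below 2 TPM in RC77 T/E, ETS1 was the reverse, and ETV4, ETV5 and ETS2 lay close together in both lines.

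ERG, on chr21:38380027-38661780 (GRCh38, − strand, ENSG00000157554), encodes the ETS factor most often fused in prostate cancer and is a normal product of endothelium. Its level was 0.121 TPM in MDA PCa 2b against 0.235 TPM in RC77 T/E. Both lines were thus below 1 TPM, and ERG was the only one of the 10 genes whose mean did not reach it. The log2 ratio was 0.14. With 1 library each, a difference between levels this low cannot be judged.

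ETV1, on chr7:13891229-13991425 (− strand, ENSG00000006468), belongs with ETV4 and ETV5 to the PEA3 group, whose members act downstream of receptor tyrosine kinases. It was at 247 TPM in MDA PCa 2b, against 1.61 TPM in RC77 T/E. The MDA PCa 2b level was 153 times that of RC77 T/E, a log2 ratio of -6.57. In bulk libraries, fewer cells with a transcript and less of it per cell cannot be told apart. Of the 11624 genes tested, 50 (0.430%) had a lower ratio. In MDA PCa 2b, ETV1 was 2034 times as abundant per length as ERG, and between 214 and 2785 genes lay above it, a range set by the unsettled marks of other genes.

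ETV4 (chr17:43527844-43579620, − strand) and ETV5 (chr3:186046314-186110318, − strand), the other PEA3 genes, did not share this difference. ETV4 was at 25.0 TPM in MDA PCa 2b against 21.6 TPM in RC77 T/E, or at 250.3 and 216 TPM at the other position of the mark. Its log2 ratio of -0.20 was close to the median of all genes tested, and after subtracting that median it was -0.050. ETV5 was at 12.7 TPM in MDA PCa 2b against 8.98 TPM in RC77 T/E, or at 127 and 89.8 TPM. Its MDA PCa 2b level was 1.41 times the other, a log2 ratio of -0.45. ETV4 overlaps DHX8 on the opposite strand and ETV5 overlaps DGKG on the same strand. DHX8 was at 6.77 TPM in MDA PCa 2b against 12.3 TPM in RC77 T/E at the lower position, so reads of ETV4 and DHX8 could be mixed if strand was not used in counting. DGKG was at 0.00588 TPM in MDA PCa 2b against 0.0237 TPM in RC77 T/E.

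FLI1, on chr11:128686535-128813267 (+ strand, ENSG00000151702), is the closest relative of ERG and is made by endothelial and blood cells. It was at 0.0192 TPM in MDA PCa 2b against 2.49 TPM in RC77 T/E. Only the second value passed 1 TPM, with a log2 ratio of 1.78, and 1305 genes tested (11.2%) had a higher ratio. The lncRNA SENCR, which overlaps FLI1 on the opposite strand, was listed at 0 in MDA PCa 2b and at 0.806 TPM in RC77 T/E.

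SPDEF, on chr6:34537802-34556333 (− strand, ENSG00000124664), encodes the prostate-derived ETS factor, which takes part in the luminal and secretory programme and binds the promoter of the PSA gene. It was at 236 TPM in MDA PCa 2b against 0.656 TPM in RC77 T/E. The difference was 359-fold, with a log2 ratio of -7.16, the lowest of the 28 ETS family genes. Of all genes tested, 39 (0.336%) had a lower ratio. In MDA PCa 2b, ETV1 and SPDEF were nearly level, at a quotient of 1.05.

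EHF and ELF3 encode epithelium-specific ETS factors that act in epithelial differentiation and, for ELF3, in inflammatory responses. ELF3 (chr1:202007945-202017183, + strand, ENSG00000163435) was at 43.4 TPM in MDA PCa 2b against 2.00 TPM in RC77 T/E, or at 434 and 20.0 TPM. Its MDA PCa 2b level was 21.7 times that of RC77 T/E, and the log2 ratio was -3.89. EHF (chr11:34621093-34663288, + strand, ENSG00000135373) was at 12.7 TPM in MDA PCa 2b against 5.31 TPM in RC77 T/E, or at 127 and 53.1 TPM. The EHF difference of 2.40 times was smaller. Its log2 ratio of -1.12 became -0.97 after the median of all genes was subtracted, just below a 2-fold difference.

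ETS1, on chr11:128458761-128587558 (− strand, ENSG00000134954), encodes a MAP-kinase-responsive factor of lymphocytes, endothelium and invasive epithelial cells. It was at 0.0265 TPM in MDA PCa 2b against 60.0 TPM in RC77 T/E. The quotient was 2260 and the log2 ratio 5.89, the highest of the family, with 125 genes tested (1.08%) above it. ETS1 was thus near 0 in the line where ETV1 and SPDEF were abundant. In RC77 T/E, ETS1 was 24.0 times as abundant per length as its neighbour FLI1 and 37.2 times as abundant as ETV1. ETS2 (chr21:38805183-38824955, + strand), the paralog of ETS1, did not share the difference. It was at 26.1 TPM in MDA PCa 2b against 31.6 TPM in RC77 T/E, or at 261 and 316 TPM, a log2 ratio of 0.27.

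**Figure D2:**
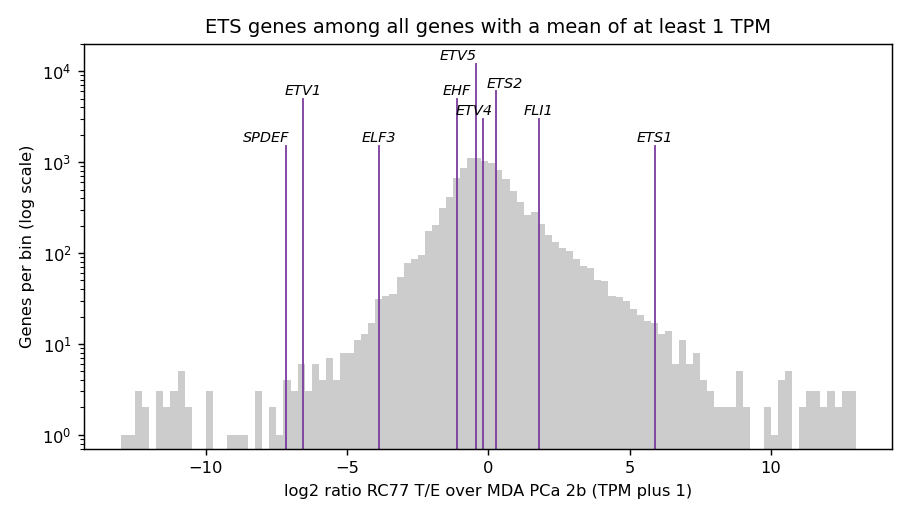
Number of genes (y axis, log scale) by log2 ratio, RC77 T/E in the numerator (x axis, 1 TPM added) for the 11624 genes whose mean reached 1 TPM, with lines at 9 of the 10 ETS genes (ERG had a lower mean). SPDEF at -7.16 and ETV1 at -6.57 lay in the left tail and ETS1 at 5.89 in the right tail, while ETV4, ETV5 and ETS2 lay near the peak.

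The remaining 18 genes of the ETS family showed mostly smaller differences. In each line 10 of them were at 1 TPM or more, against 49.6% (MDA PCa 2b) and 52.8% (RC77 T/E) of all genes. Of the 18, 9 were at that level in both lines, and 7 were below it in both. Their median log2 ratio was -0.033, with 2 genes past 2-fold towards RC77 T/E and 2 past it towards MDA PCa 2b. Of all genes tested, 19.4% and 20.0% were past 2-fold in these directions. ELK3, a ternary complex factor that partners with SRF, was at 0.840 TPM in MDA PCa 2b against 36.4 TPM in RC77 T/E, a log2 ratio of 4.34. ELF4 had a log2 ratio of 1.48, with 2.35 and 8.32 TPM at the lowest position of its mark. ELF2 was higher in MDA PCa 2b, at 18.1 against 6.54 TPM at the lower position, with a log2 ratio of -1.34. ETV2, known from endothelial development, was at 1.25 TPM in MDA PCa 2b against 0.0176 TPM in RC77 T/E, a log2 ratio of -1.15. After the median of all genes was subtracted, the ETV2 ratio was -0.99, just below a 2-fold difference. Its mean was below the 1 TPM that the genes tested reached.

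The other expressed family genes stayed within 2-fold on this scale. ETV3 (log2 ratio -0.80), ELK1 (-0.93) and ELF1 (-0.22) were lower in RC77 T/E. ERF (0.90), ELK4 (0.56) and ETV6 (0.24) were higher there, and ERF reached 1.05 after the median of all genes was subtracted and 1.32 at its highest position. GABPA, a factor of housekeeping and mitochondrial genes, was at 7.40 TPM in MDA PCa 2b against 7.57 TPM in RC77 T/E. SPI1 and SPIB, the blood ETS factors, were below 0.05 TPM in both lines.

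Summed over the 28 family genes, ETS transcripts came to between 690 and 2661 TPM in MDA PCa 2b, since some marks were unsettled. ETV1 and SPDEF together made up 482 TPM of it, 69.9% of the lower sum and 18.1% of the higher. In RC77 T/E the same pair came to 2.27 TPM, 0.953% of the lower family sum and 0.0973% of the higher. There the family sum was between 238 and 2333 TPM, of which ETS1 was 25.2% or 2.57%. ELK3, the next highest of the settled values in that line, was 22.5 times as abundant as ETV1.

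**Figure D3:**
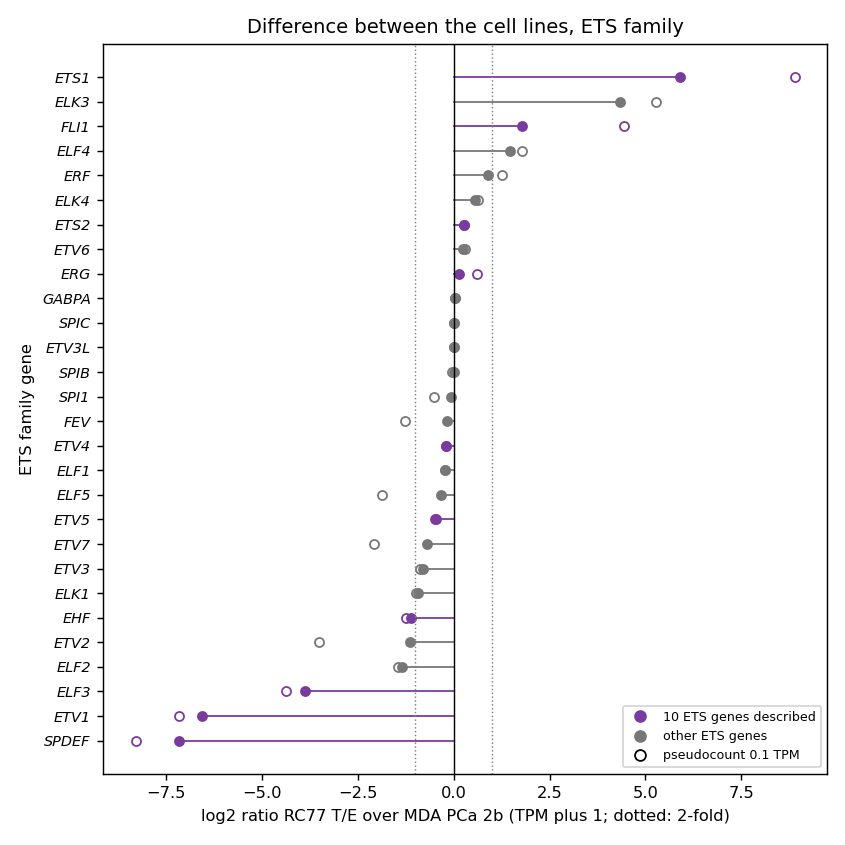
Log2 ratio of RC77 T/E over MDA PCa 2b (x axis) for the 28 ETS family genes (y axis, sorted), with a pseudocount of 1 TPM as filled points (purple for the 10 genes described, grey for the rest) and of 0.1 TPM as open points; dotted lines mark 2-fold. SPDEF, ETV1 and ELF3 form the left end and ETS1, ELK3 and FLI1 the right end, and the smaller pseudocount moved ETS1 to 8.89 and FLI1 to 4.44.

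Markers of cell types were compared because ETS genes are lineage-dependent. All 8 prostate luminal markers reached 1 TPM in MDA PCa 2b, but 3 of the 8 did in RC77 T/E, against 49.6% and 52.8% of all genes. The median log2 ratio of the 8 was -3.85 (-7.47 at the highest positions of the mark). KLK3, the PSA gene, was at 5323 TPM in MDA PCa 2b but listed at 0 in RC77 T/E. Of 6 basal markers, 5 were higher by 2-fold or more in RC77 T/E, against 19.4% of all genes tested. Among them was KRT5 at 0.00435 and 4027 TPM. A value listed at 0 can be a failed estimate. Defining luminal prostate markers were thus present in MDA PCa 2b and absent or low in RC77 T/E, which had the basal keratins besides KRT8 and KRT18. The part of luminal or basal identity in the ETS differences was not tested.

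Endothelial and blood cells are other sources of ERG, FLI1 and ETS1 transcripts. None of 7 endothelial markers reached 1 TPM in either line, and they summed to 0.277 TPM in MDA PCa 2b against 0.955 TPM in RC77 T/E. CLDN5 made up most of the RC77 T/E sum, at 0.874 TPM there and 0.0519 TPM in MDA PCa 2b. TIE1 was at 0 in both lines and PECAM1 at 0 in RC77 T/E. Of 8 blood markers, CD14 alone passed 1 TPM, at 4.92 TPM in RC77 T/E, where PTPRC, the pan-leukocyte marker, was at 0. The blood markers summed to 0.881 TPM in MDA PCa 2b against 4.96 TPM in RC77 T/E. Fibroblast markers summed to 2.78 and 9.17 TPM, with COL1A1 at 8.24 TPM in RC77 T/E the only value of 6 genes above 1 TPM.

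The known 5′ fusion partners of ETS genes were mostly more abundant in MDA PCa 2b. All 10 were at 1 TPM or more there, and 8 were in RC77 T/E, against 49.6% and 52.8% of all genes. In MDA PCa 2b 7 were higher by 2-fold or more, against 20.0% of all genes tested. None was in RC77 T/E, against 19.4%. Their median log2 ratio was -1.43. TMPRSS2, the androgen-driven protease gene, was at 483 TPM in MDA PCa 2b against 0.108 TPM in RC77 T/E, a log2 ratio of -8.77. ERG, 2802.5 kb away on the same chromosome, stayed at 0.121 TPM in the line with this level of TMPRSS2. SLC45A3, a prostate transporter gene, was at 231 and 2.38 TPM (log2 ratio -6.10). KLK2, a prostate kallikrein, was listed at 0 in RC77 T/E and was at 5.68 TPM or a higher position of its mark in MDA PCa 2b (log2 ratio -2.74 at the lowest position). CANT1 was at 155 TPM in MDA PCa 2b against 30.7 TPM in RC77 T/E (log2 ratio -2.30). NDRG1, with a log2 ratio of 0.66, was the only partner higher in RC77 T/E.

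Between ERG and TMPRSS2 the table held 23 genes, 13 of them protein-coding. Of the 13 protein-coding genes, 6 reached 1 TPM in MDA PCa 2b, and 8 did in RC77 T/E, against 49.6% and 52.8% of all genes. None of the 13 was higher by 2-fold or more in MDA PCa 2b, against 20.0% of all genes tested. In RC77 T/E 3 were, against 19.4%: BACE2 (log2 ratio 2.58), DSCAM (1.60 at the lowest position) and MX2 (1.27). The mean of MX2 was below the 1 TPM that the genes tested reached. The table holds no read positions, so whether any ETS gene is fused was not tested.

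MDA PCa 2b is known to carry a rearrangement that places ETV1 in a region of chromosome 14 beside FOXA1 and MIPOL1, as LNCaP does. The 3 genes of that region in the table were all higher by 2-fold or more in MDA PCa 2b, against 20.0% of all genes tested. Their median log2 ratio was -2.30. FOXA1, a pioneer factor of luminal prostate, was at 194 TPM in MDA PCa 2b against 4.19 TPM in RC77 T/E (log2 ratio -5.23). MIPOL1 was at 12.3 and 1.70 TPM (log2 ratio -2.30). SLC25A21, a mitochondrial carrier gene, was at 1.83 and 0.329 TPM (log2 ratio -1.09, or -0.94 after subtracting the median of all genes). TTC6 was not analysed here. At the normal position of ETV1 on chromosome 7, the only neighbour in the table within 500 kb was DGKB, 153.6 kb away. DGKB was at 0.00293 TPM in MDA PCa 2b against 0.00216 TPM in RC77 T/E, so the nearest gene did not share the level of ETV1.

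The neighbours of SPDEF gave a mixed picture. PACSIN1, 2.57 kb away, was at 7.12 TPM in MDA PCa 2b against 0.0472 TPM in RC77 T/E, a log2 ratio of -2.95. NUDT3, 145 kb away, was at 2228 and 1349 TPM, but it shares a read-through transcript with the ribosomal gene RPS10, so its level is uncertain. HMGA1, a chromatin protein gene, was higher in RC77 T/E with a log2 ratio of 2.98. Of 8 protein-coding neighbours within 500 kb, 1 was higher by 2-fold or more in RC77 T/E and 2 were in MDA PCa 2b. The shares of all genes tested were 19.4% and 20.0%.

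ETS1 and FLI1 lie 98.98 kb apart on chromosome 11 and were both higher in RC77 T/E. Farther on, KCNJ1 was listed at 0 in MDA PCa 2b and at 0.0355 TPM in RC77 T/E. ARHGAP32, 152 kb beyond FLI1, was higher in MDA PCa 2b, with a log2 ratio of -0.66. Besides FLI1, it was the only protein-coding gene within 500 kb of ETS1 that reached 1 TPM. KCNJ5 was at 0 TPM in MDA PCa 2b against 0.0906 TPM in RC77 T/E, and TP53AIP1 at 0.0456 and 0.153 TPM. These were higher in RC77 T/E, but below 1 TPM in both lines. Whether the differences of ETS1 and FLI1 have a shared cause was not tested.

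**Figure D4:**
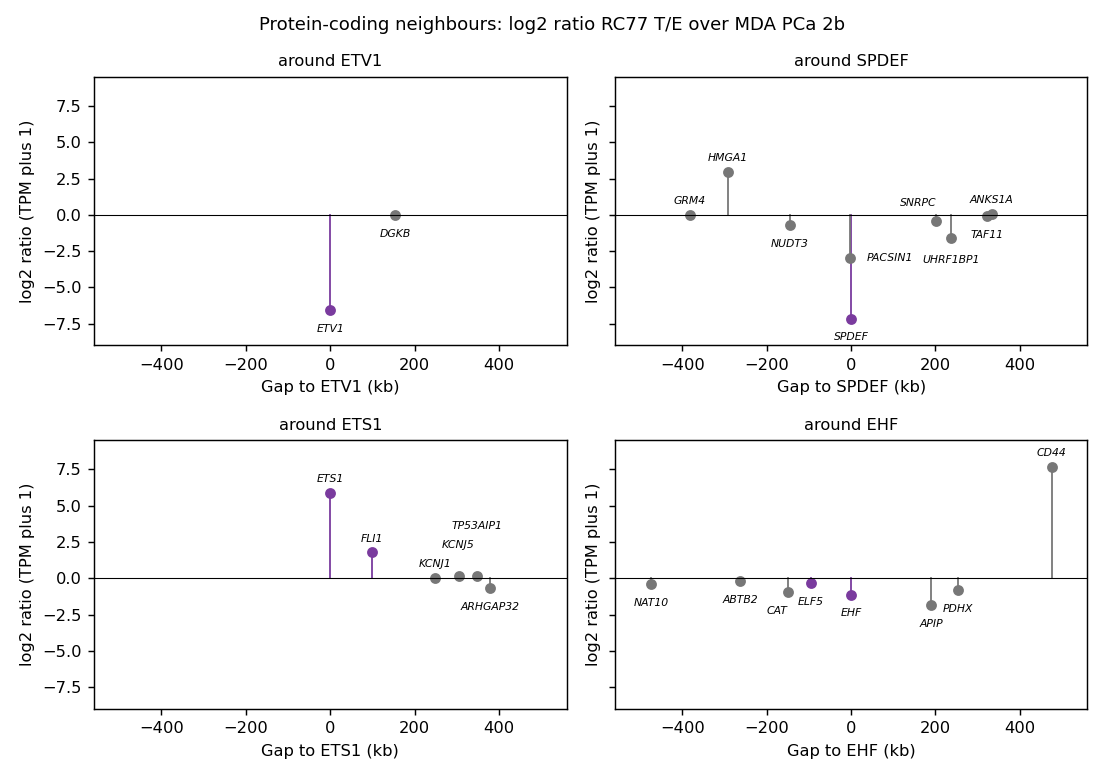
Log2 ratio of RC77 T/E over MDA PCa 2b (y axis, TPM plus 1) of protein-coding genes by their gap in kb (x axis) to ETV1, SPDEF, ETS1 and EHF, with ETS family genes in purple. DGKB beside ETV1 lay near 0, PACSIN1 beside SPDEF at -2.95, FLI1 beside ETS1 at 1.78, and CD44 beside EHF at 7.67.

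Genes that set the amount of PEA3 and ERG proteins differed little. All 10 such regulators in the table reached 1 TPM in both lines, with a median log2 ratio of -0.20. CIC, which encodes capicua, the repressor of PEA3 genes, was at 8.61 TPM in MDA PCa 2b against 13.9 TPM in RC77 T/E, or 10 times as much in both, a log2 ratio of 0.63. SPOP, an adaptor for ubiquitination of ERG, was past 2-fold, at 30.0 and 9.71 TPM at the lower position (log2 ratio -1.53). ATXN1 (0.78) and TRIB2 (-0.99) lay within 2-fold on this scale, but reached 1.03 and -1.06 with 0.1 TPM added in place of 1. COP1 was not analysed here.

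Feedback genes of MAP kinase signalling, several of which are PEA3 or ternary complex targets, differed in both directions. Of 12 genes, 5 passed 2-fold towards RC77 T/E and 4 towards MDA PCa 2b, against 19.4% and 20.0% of all genes tested. Their median log2 ratio was -0.39. PHLDA1 was at 0.472 TPM in MDA PCa 2b against 68.8 TPM in RC77 T/E (log2 ratio 5.57). EGR1, an immediate-early factor and ternary complex target, was at 0.362 and 53.4 TPM (log2 ratio 5.32). IER3 had a log2 ratio of 4.02 and SPRY2, an inhibitor of receptor signalling, one of 2.97. SPRY4, from the same family, went the other way, with a log2 ratio of -2.51. The group thus did not follow ETV1 as a whole.

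Transcripts associated with ERG in prostate tumours differed in both directions. Of 12 genes, 6 reached 1 TPM in MDA PCa 2b, 4 did in RC77 T/E, and 4 were below it in both lines, where 49.6% and 52.8% of all genes reached it. The median log2 ratio was -0.90, with 4 genes past 2-fold towards MDA PCa 2b and 2 towards RC77 T/E. Among all genes tested, 20.0% and 19.4% were. The 4 include CRISP3 and F5, whose means were below the 1 TPM that all genes tested reached. Of the 12 genes, 6 reached that mean. HLA-DMB, an antigen-presentation gene, was at 75.5 TPM in MDA PCa 2b against 0.0129 TPM in RC77 T/E (log2 ratio -6.24). ARHGDIB was at 0.125 and 19.8 TPM (log2 ratio 4.21). PLA2G7, a phospholipase gene, was at 12.7 and 0.0666 TPM (log2 ratio -3.68), and VWA2 at 0.135 and 3.55 TPM (log2 ratio 2.00). TDRD1, a germ-cell gene linked closely to ERG, was at 0.0554 TPM in MDA PCa 2b but at 0 in RC77 T/E. ERG itself was below 1 TPM in both lines.

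Epithelial genes linked to SPDEF, EHF and ELF3 differed in both directions. Of 20 genes, 7 passed 2-fold towards MDA PCa 2b and 5 towards RC77 T/E, against 20.0% and 19.4% of all genes tested. Their median log2 ratio was 0.0019. The 7 include TFF3, whose mean was below the 1 TPM that the genes tested reached. CREB3L1, a secretory-pathway factor, was at 107 TPM in MDA PCa 2b against 0.0241 TPM in RC77 T/E (log2 ratio -6.73), and PSCA, a prostate surface antigen, at 182 and 0.844 TPM (log2 ratio -6.63). AGR2, a secretory-protein isomerase and SPDEF target, was at 58.5 and 6.15 TPM (log2 ratio -3.06). Genes of the cornified envelope in the list were higher in RC77 T/E, except TGM3. SPRR1B was listed at 0 in MDA PCa 2b and at 119 TPM in RC77 T/E (log2 ratio 6.90), and SPRR1A was listed at 0 and at 19.8 or 198 TPM (log2 ratio 4.38). TGM1 had a log2 ratio of 1.70, and SPRR2A one of 1.59 at the lowest position. TGM3, a transglutaminase gene, was at 2.10 and 0.0346 TPM (log2 ratio -1.58). LCN2, a secreted lipocalin gene, was higher in RC77 T/E, with a log2 ratio of 2.35. MUC5B, a goblet mucin gene, was below 0.05 TPM in both lines, and CDH1, the E-cadherin gene, had a log2 ratio of 0.26.

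**Figure D5:**
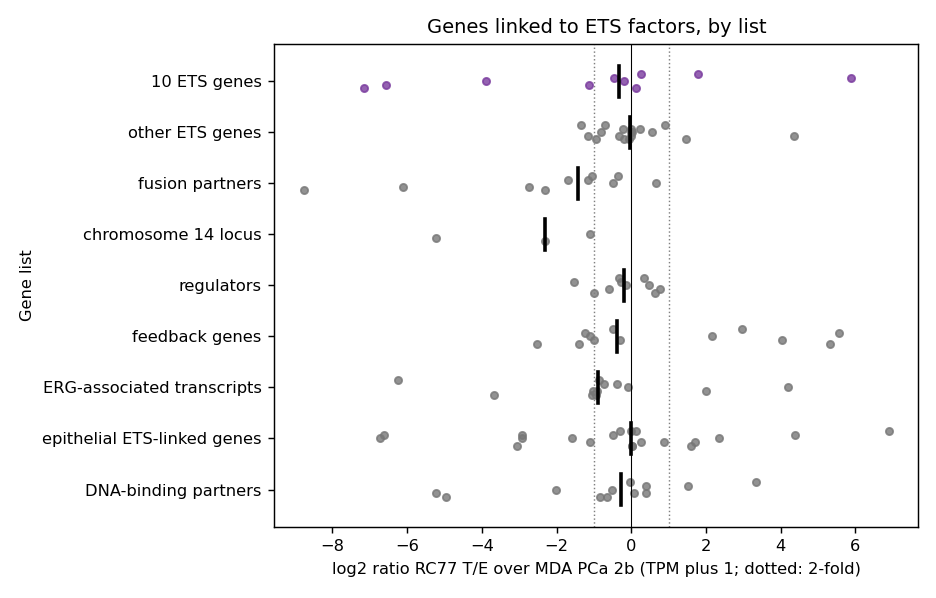
Log2 ratio of RC77 T/E over MDA PCa 2b (x axis, TPM plus 1) of each gene in 9 lists (y axis; 1 point a gene, black bar the median, dotted lines 2-fold). The 10 ETS genes spread from -7.16 to 5.89 with a median of -0.33, while the fusion partners had a median of -1.43 and the 3 genes of the chromosome 14 region one of -2.30.

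DNA-binding partners of ETS proteins were mostly present in both lines. Of 12 genes, 11 reached 1 TPM in MDA PCa 2b and 9 did in RC77 T/E, against 49.6% and 52.8% of all genes. Past 2-fold were 3 towards MDA PCa 2b and 2 towards RC77 T/E, against 20.0% and 19.4% of all genes tested. The median log2 ratio of the 12 genes was -0.27. FOXA1, described above, had the lowest log2 ratio among them at the lowest positions of the marks, at -5.23. FOS, a subunit of AP-1, was higher in RC77 T/E with a log2 ratio of 3.33. HOXB13, a prostate homeobox factor, was listed at 0 in RC77 T/E. Its log2 ratio was -2.01 at the lowest position but -8.24 at the highest, below that of FOXA1. RUNX1, a partner of ETS1, was at 11.8 and 12.4 TPM, and SRF, the partner of ELK factors, had a log2 ratio of -0.85.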

How the data were processed

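Total RNA of both cell lines was isolated with TRIzol and sequenced from directional paired-end libraries. The submitters' processing notes name CASAVA, FastQC 0.11.9, Trimmomatic 0.38, Salmon 1.2.0 and GRCh38. The row identifiers have the form used by Cufflinks, and the annotation and the use of strand are not given in the sources used here. The deposited values are TPM per locus for each cell line, with the authors' mean and standard error of the 2 lines, which is no replicate error. No read counts were used, so the depth and its precision are unknown.

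Many deposited values of 1 TPM or more carry commas in place of a decimal mark. Marks after the first 1 to 3 digits, with 3 or more digits left behind them, were tried, and pairs matching the deposited mean and standard error were kept. Of 22791 rows, 16284 had 1 position and 6507 had 2 or 3. Of 5000 rows simulated with these same writing rules, 3646 had 1 position, the true one in 3646. That outcome follows from the rules, so it checks the code and not how the deposited values were written. Where several positions remained, the lowest was used as a convention. TPM cannot sum to over 1000000, and the highest positions summed to 2416345.6 and 2140325.7, so not every mark can be at its highest. The lowest summed to 751124.9 and 682469, short of 1000000. The sums therefore do not settle the mark of any single gene, and lowest values can be too low. The design had assumed plain TPM.

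Loci of one symbol were summed. Genes counted as expressed at 1 TPM or more. Ratios used a pseudocount of 1 TPM, and 2-fold means a log2 ratio of 1 or more in size. Counts past 2-fold within a list include genes whose mean was below 1 TPM, which the shares of all genes tested leave out. No test was possible with 1 library per line. Positions come from the deposited table, strand and overlaps from GENCODE release 29. All 10 genes were named, with up to 4 genes of largest ratio of each further list and any gene a list is built around. A few genes of these lists are not reported here. In a few lists further genes were named after their values were seen. The members and lists were chosen with earlier results of these data known. Alternatives were other thresholds, pseudocounts, scalings, locus handling and mark positions. Python 3.11.15, numpy 2.4.6 and matplotlib 3.10.9 were used.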

Additional observations from a re-analysis of the deposited data

How the results depend on the processing

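No ratio of the 10 ETS genes changed direction under another pseudocount, centring on the median of all genes, upper-quartile scaling, the largest locus only or the highest position of the decimal mark. With a threshold of 5 TPM, 5 of the 10 genes counted as expressed in RC77 T/E instead of 8 (6 at the highest positions, an alternative chosen after seeing the data). The median log2 ratio of the 10 genes moved from -0.33 to -0.18 after centring and to -0.18 after upper-quartile scaling, by construction, since these remove the shift of all genes, and EHF then fell just under 2-fold. With a pseudocount of 0.1 TPM the log2 ratios of ERG, FLI1 and ETS1 became 0.60, 4.44 and 8.89. Over all genes above 0 TPM in either line, 28.9% were at least 2-fold apart, against 39.3% of those whose mean reached 1 TPM. No paired analysis was possible because there was only 1 library of either line. The unknown depth limits every value below 1 TPM, and the ranks and family shares depend on the open decimal marks.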

Other observations

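Several neighbours of the ETS genes differed more than the ETS gene beside them. Within 500 kb of EHF, CD44, a hyaluronan receptor gene of basal epithelium 476 kb away, was at 0.786 TPM in MDA PCa 2b against 364 TPM in RC77 T/E, a log2 ratio of 7.67, while APIP had one of -1.84. The ETS gene ELF5, 95.9 kb from EHF, was at 0.264 TPM in MDA PCa 2b but at 0 in RC77 T/E. Beside ETV5, IGF2BP2, an RNA-binding protein gene, was at 0.0135 and 31.7 TPM (log2 ratio 5.01). Beside ERG, the potassium channel gene KCNJ15, 72.7 kb away, was at 0.00572 TPM in MDA PCa 2b against 14.1 TPM in RC77 T/E, whereas the lncRNA DSCR8 was at 19.7 or 197 TPM in MDA PCa 2b but listed at 0 in RC77 T/E. These genes were named after their values were seen. RNPEP, 1.80 kb from ELF3, had a log2 ratio of -0.54 against -3.89 for ELF3.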
